A study of Mus musculus with 16 samples.

Results

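The comparison concerns the duration of antigen seen by CD4+ T cells when their hosts also received an activating antibody against CD40. Of 16 arrays in the series 5 carry it: 3 arrays of T cells from hosts with persistent antigen (the long doxycycline protocol) and 2 arrays of T cells from hosts with transient antigen (the short protocol), all with anti-CD40. They were chosen by their titles alone. The T cells came from AND T cell receptor transgenic donors, which recognise a peptide of moth cytochrome c, and carried the congenic marker CD90.1. Between 2000000 and 4000000 donor lymph node cells were given to B10.BR recipients aged 6 to 8 weeks that carried both the Ii-rTA and the TIM transgenes, so that doxycycline switched on the peptide. Persistent recipients expressed the antigen for the whole experiment and transient recipients for part of it, and both groups were injected with FGK45.5, the anti-CD40 antibody. CD4+CD90.1+ cells were sorted from subcutaneous lymph nodes after 60 h. The same contrast with PBS in place of the antibody (3 persistent and 3 transient arrays, same recipient genotype) and 2 arrays of cells from TIM+ recipients without Ii-rTA, which had anti-CD40 but no doxycycline and no antigen, are used only to set the values in context. All donor cells bear 1 transgenic receptor, the inducer transgene is named for Ii, the invariant chain of cells with MHC class II, and the sources used here give neither the doxycycline schedule nor the number of animals behind an array.

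A naive CD4+ T cell reads antigen through its receptor while the dendritic cell that presents the peptide supplies costimulation. CD40 on dendritic cells normally receives its ligand from activated T cells, and an agonist antibody replaces that signal, raising costimulatory ligands and cytokines on the presenting cell. A T cell that meets antigen on an activated dendritic cell enters division, loses lymph node homing and quiescence genes, and acquires effector or follicular helper features. Continued receptor signalling is also known to sustain inhibitory receptors and the transcription factors of the TOX family.

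The labels list each array as its own sample without saying whether another animal stood behind it, and the p-values therefore reflect sample-to-sample spread that may be technical. Same-numbered arrays of different groups deviated together from their group means in all 36 pairs (r between 0.48 and 0.81). Arrays of other numbers ranged from -0.81 to 0.60, and their negative values are partly forced because deviations cancel out within a group. Whether the number marks matched pairs cannot be told from these correlations. In the persistent and transient arrays, each replicate number also coincided with a single run of consecutive array numbers. A block on the replicate number cannot be told apart from a block on that run in these arrays. Results are shown from the fit that blocks on this number wherever it alters a call. The third persistent array has no transient array of its number. Replicate 1 arrays of both groups read as male and the others as female: Eif2s3y, a Y-linked translation factor gene, was at log2 8.88 in persistent replicate 1 and 9.03 in transient replicate 1, against 2.72 to 2.85 in the other 3 arrays. All 8 measured T cell markers lay above the median probe set (log2 4.37), and Cd28 was the brightest. Median intensity was 18.2 to 20.6 across the 5 arrays. The replicate 2 arrays stood apart in mean intensity, at 96.0 (persistent) and 101.4 (transient) against 115.2 to 120.6 in the others. Persistent replicate 2 correlated at most at 0.961 with its group, whereas persistent replicates 1 and 3 reached 0.987. In sorted bulk samples, fewer cells of a type and less RNA per cell cannot be told apart.

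With anti-CD40 given, cells that kept seeing antigen differed from cells that saw it transiently in few genes. With the replicate block, 14 of 18193 genes passed the test (0.077% of the genes tested), 10 higher (0.055%) and 4 lower (0.022%) with persistent antigen. The genes that rose included Dsp, Tox2, Plek, Nt5e, Gpm6b, Timp2 and Ikzf3, and those that fell included Satb1 and Tdrp. Without the block, only Dsp passed (0.0055%). The test was limma with Benjamini-Hochberg adjustment and a threshold of 0.05 on the adjusted p, on log2(intensity + 1), fitted over all 16 arrays, and a value is called when it passes. At an unadjusted p under 0.05, which some genes pass without any difference, there were 1112 of 18193 genes with the block and 355 without it. The median 95% interval reached 0.39 log2 units to each side of a gene's difference with the block and 0.55 without it. These intervals are not adjusted for the number of genes, and a call needed more. The smallest called difference with the block was 0.73 in size, and a difference of 1.61 (Il21) did not pass. Sizeable differences could therefore be missed with 3 and 2 arrays.

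Among transcriptional regulators, 3 genes rose. Tox2, an HMG-box factor of the TOX family that is expressed in follicular helper T cells, read log2 10.91, 10.10 and 11.47 in the persistent arrays against 8.32 and 8.58 in the transient arrays. The groups did not overlap, which was a condition for naming a gene among the largest changes. Within replicate numbers 1 and 2 the persistent array was 2.59 and 1.52 higher. With the block the difference was 2.05 ± 0.22 (SE), a 4.15-fold rise (adjusted p = 0.00015). Ikzf3, which encodes the zinc finger factor Aiolos, was at 9.02, 8.84 and 9.09 with persistent antigen against 7.72 and 7.86 with transient antigen. It too separated the groups, as that condition required, and the blocked difference was 1.11 ± 0.18 (adjusted p = 0.014). Pou2af1, the coactivator of octamer-binding factors best known from B cells, read 9.29, 7.64 and 8.78 in persistent arrays and 7.71 and 6.34 in transient arrays. Its groups overlapped, and the call rests on the comparison within replicate numbers, where it was 1.58 and 1.30 higher (block difference 1.42 ± 0.24, adjusted p = 0.023). The summed intensity of the 9 measured B cell markers lay between 366 and 457 in persistent arrays and between 356 and 380 in transient arrays, 2 of the 9 lay above the median probe set (Cd22 was the brightest), and the part of these transcripts in the Pou2af1 value was not tested.

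Among surface and signalling genes, Nt5e and Plek rose. Nt5e encodes CD73, the surface nucleotidase that makes adenosine from AMP. Persistent arrays had log2 5.88, 6.69 and 5.66 of it, and transient arrays had 3.99 and 4.52. Every persistent array exceeded both transient arrays, as the naming rule required, and the blocked difference was 1.92 ± 0.21 (adjusted p = 0.00016). The other 2 Nt5e probe sets were nearly as bright (mean log2 4.73 and 4.97, against 5.11 for the one used) and differed by only 0.10 and 0.12, so the rise was seen by 1 of 3 probe sets. The no-antigen arrays with anti-CD40 had 4.77 and 5.19 and so lay above the transient arrays and below the persistent ones. Plek encodes pleckstrin, a protein kinase C substrate of blood cells, and read 7.64, 7.31 and 8.05 with persistent antigen against 6.49 and 4.64 with transient antigen. The 2 transient arrays were far apart, and the gene's difference was 1.95 ± 0.30 (adjusted p = 0.01). It was 1.32 without transient replicate 2, where it no longer passed (adjusted p = 0.28).

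The other increases were in genes of separate functions. Dsp encodes desmoplakin, which anchors intermediate filaments at desmosomes in epithelia. It stood at 6.04, 6.41 and 7.12 in persistent arrays and at 3.23 and 3.07 in transient arrays, where it was below the median probe set, as it was in the no-antigen arrays (3.64 and 3.56). The fitted difference was 3.13 ± 0.30 with the block (adjusted p = 4.7e-05) and 3.38 without it (adjusted p = 0.033), and no fold is given because the transient level was not shown to be above background. A second probe set of nearly the same brightness differed by 2.78. Timp2, a secreted inhibitor of metalloproteinases, was at 8.78, 8.59 and 9.47 in persistent arrays against 7.41 and 7.03 in transient arrays. The no-antigen values of 8.34 and 8.26 lay between the groups, and the difference of 1.38 ± 0.19 passed with the block (adjusted p = 0.0043). Gpm6b, a proteolipid-family membrane glycoprotein first described in neurons, had 7.84, 7.19 and 7.45 in persistent arrays and 6.22 and 4.92 in transient arrays, a difference of 1.86 ± 0.27 (adjusted p = 0.0067). Ccdc28b, a coiled-coil protein linked to cilia, rose by 1.14 ± 0.21 (adjusted p = 0.039), with persistent arrays at 5.67 to 6.16 and transient arrays at 4.54 and 4.76. Bhmt2, a homocysteine methyltransferase, also passed (0.73, adjusted p = 0.037), but its arrays overlapped and it was dim. It is outside the rule for named genes and is named because its value was seen.

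In all, 4 genes fell with persistent antigen. Satb1, a chromatin organiser of thymocytes and resting T cells, read 9.47, 9.35 and 9.60 in persistent arrays against 10.46 and 10.32 in transient arrays. The no-antigen arrays (10.53 and 10.49) were close to the transient ones. Its blocked difference was -0.96 ± 0.17 (adjusted p = 0.035). Tdrp was at 5.57, 5.12 and 5.18 with persistent antigen against 6.52 and 6.50 with transient antigen, and the no-antigen arrays stood higher at 8.96 and 8.33. Both groups that saw antigen thus lay below the group that did not, and persistent antigen lay lowest, by a further -1.31 ± 0.24 (adjusted p = 0.039). Hemgn, a nuclear protein of blood-forming cells, fell by 1.01 (adjusted p = 0.037), and Spata5l1, an AAA-family ATPase, fell by 0.90 (adjusted p = 0.023), where persistent arrays lay below the median probe set.

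**Figure D1:**
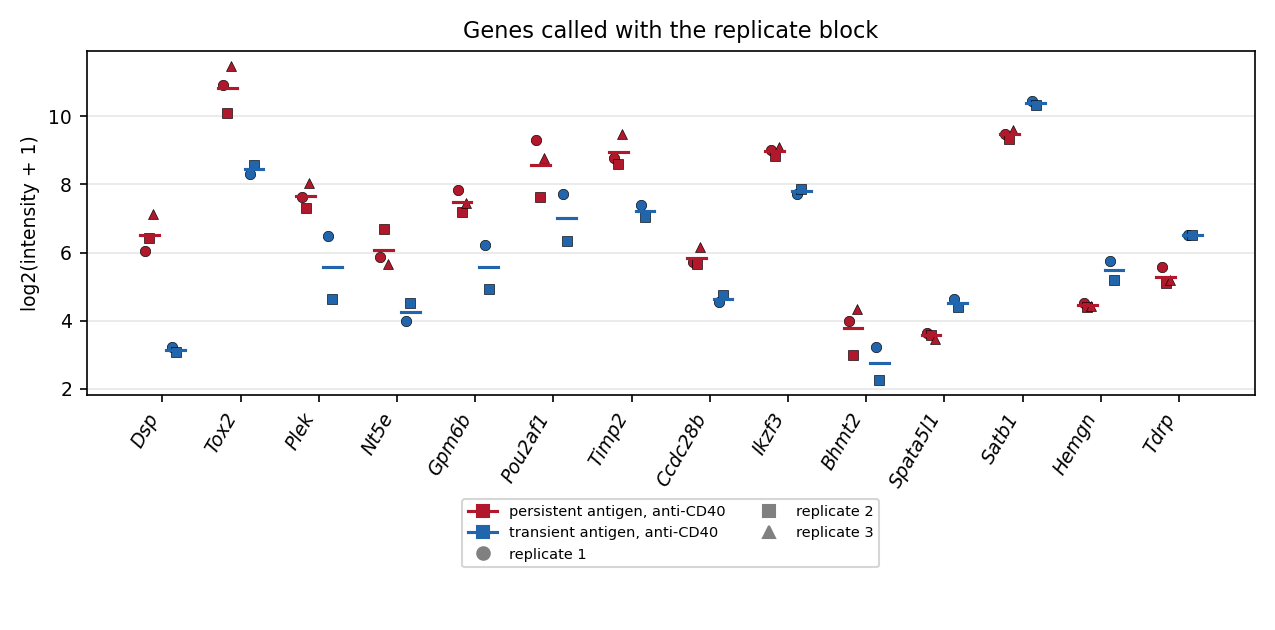
Log2(intensity + 1) of the 14 genes called with the replicate block, 1 point per array, persistent antigen (red) left of transient antigen (blue), with marker shape for the replicate number and a line at each group mean. In all but Pou2af1 and Bhmt2 the persistent and transient arrays do not overlap, and Dsp has the widest gap. The share of all genes without overlap is not given here.

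The calls for Dsp, Nt5e and Tox2 held with the block whichever of the 5 arrays was left out. The other 11 did not: without transient replicate 2 or without persistent replicate 2 only those 3 of the 14 remained called, and without transient replicate 1 or persistent replicate 1 there were 6. Averaging all probe sets of a gene left Dsp, Gpm6b, Plek and Spata5l1 called, 4 of the 14. All 5 probe sets of Satb1 and all 3 of Plek gave differences of the same sign. For Dsp, Tox2 and Timp2, another and dimmer probe set of the gene (mean log2 2.71, 3.86 and 2.76) gave a difference of opposite sign and of at most 0.23 in size.

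The key genes of CD4+ T cell differentiation were set apart as a list of 30, of which 28 were measured and none passed in either fit (0 of 28, with a median difference of 0.02 with the block against -0.03 over all genes). Bcl6, the master regulator of follicular helper cells, read 7.05, 6.47 and 7.25 in persistent arrays and 6.04 and 5.83 in transient arrays. Cxcr5, the chemokine receptor that brings these cells to follicles, was at 5.54, 5.56 and 5.76 against 4.60 and 4.37. Neither overlapped, with differences of 0.86 (adjusted p = 0.45) and 1.05 (adjusted p = 0.12). The share of all genes without overlap is not given here. A lack of overlap alone, also for Lag3 and Myc below, is therefore not read as a difference. Il21, the cytokine of follicular helper cells, had 9.64, 8.35 and 9.69 in persistent arrays against 8.63 and 6.36 in transient arrays, and its groups overlapped. It was the largest of the list at 1.61 ± 0.40 and did not pass (adjusted p = 0.30). Maf, a factor that drives Il21, was 0.86 higher in the same fit (adjusted p = 0.78). In the 16 measured follicular helper genes, 2 rose (Tox2 and Pou2af1) and none fell, against 0.055% and 0.022% of all genes. The list's median difference was 0.22, against -0.03 over all genes. The lists were chosen with earlier results of these data known.

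Effector cytokine and cytotoxic genes gave differences with wide intervals. Gzmb, which encodes granzyme B, read 9.32, 7.72 and 9.29 with persistent antigen against 8.98 and 7.15 with transient antigen. Each persistent array with a partner was above its transient partner, yet the interval of the blocked difference ran from -0.31 to 1.08. Ifng, the Th1 cytokine, was at 8.48, 6.50 and 8.99 against 10.08 and 5.97. The transient arrays bracketed the persistent ones, and the blocked difference of -0.61 had an interval from -1.54 to 0.32. Tbx21, the Th1 master regulator, differed by -0.04 (interval -0.70 to 0.62), and Prdm1, the gene of Blimp-1, by 0.85 (interval -0.04 to 1.73). None of the 14 Th1 genes, 18 cytotoxic granule genes or 16 effector cytokine genes passed. The largest shift among the cytokines after Il21 was a lower Ebi3, a subunit of IL-27 and IL-35 named here after its value was seen (-1.37, adjusted p = 0.08).

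The inhibitory receptor list gave 1 call among 12 measured genes, against 0.077% of all genes called. That call was Nt5e, which encodes an enzyme and not a receptor. Its other probe sets differed by only 0.10 and 0.12. No other member of the list passed. The median difference of the list was 0.11, against -0.03 over all genes. Lag3, a receptor for MHC class II, read 5.10, 4.52 and 5.86 in persistent arrays against 4.29 and 3.94 in transient arrays, without overlap (0.90, adjusted p = 0.45). Pdcd1, which encodes PD-1, differed by 0.40 (interval -0.01 to 0.82), Havcr2, which encodes TIM-3, by 0.15 (interval -0.47 to 0.76), and Ctla4 by -0.13 (interval -0.63 to 0.36). Among 17 early genes of antigen receptor signalling, none passed, although 1 did in the blocked fit after cyclic loess scaling. Egr2, a zinc finger factor induced through the receptor, was nearest, with 8.98, 8.11 and 9.17 in persistent arrays and 7.76 and 7.15 in transient arrays (1.14 ± 0.24, adjusted p = 0.14). Cd69, Nr4a1 and Nr4a3, other receptor-induced genes, were at -0.35, -0.29 and -0.94, and none of them passed. Nr4a3 was named after its value was seen.

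Genes of resting and recirculating T cells were lower more often than not. In the 25 measured, 21 differences were negative, where 44.3% of all genes were positive. Of the 25, 2 passed as lower (Satb1 and Tdrp), against 0.022% of all genes. The median over the list was 7.70, 7.31 and 7.36 in persistent arrays against 8.15 and 7.91 in transient arrays, and these medians did not overlap. Il7r, the receptor for the survival cytokine IL-7, read 7.27, 7.12 and 8.17 with persistent antigen against 8.85 and 7.91 with transient antigen (-1.03, adjusted p = 0.54). Bcl2, which protects resting T cells from death, read 7.35, 6.97 and 7.36 against 8.18 and 7.62 (-0.78, adjusted p = 0.30). Ccr7, the lymph node homing receptor, differed by -0.59 (adjusted p = 0.78). The median of the list's differences was 0.04 within replicate 1 and -0.58 within replicate 2, so the pairs differed. Myc, the growth regulator, read 4.38, 4.83 and 3.98 in persistent arrays against 5.76 and 5.49 in transient arrays. It did not overlap and did not pass (-0.99, adjusted p = 0.25).

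**Figure D2:**
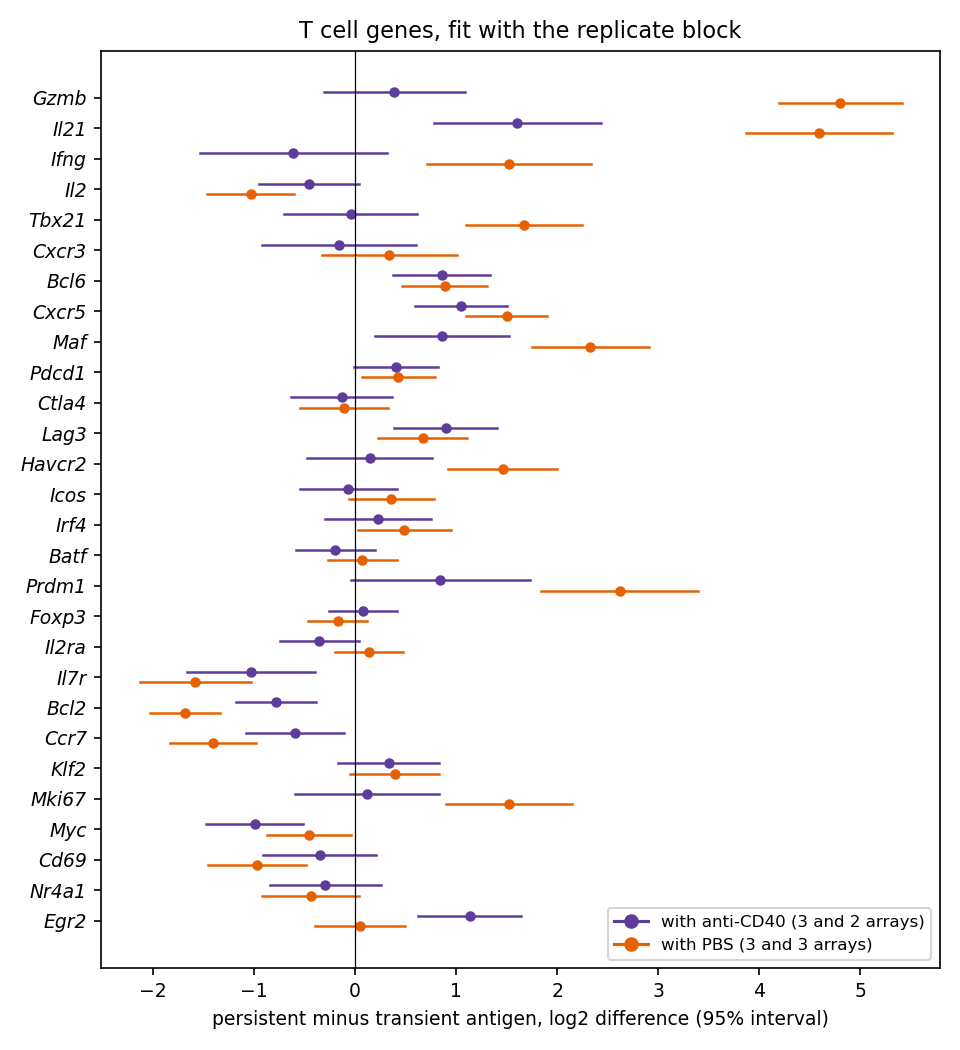
Log2 difference of persistent minus transient antigen in the 28 measured key genes, with anti-CD40 (purple) and with PBS (orange), as points with 95% intervals that are not adjusted for the number of genes, from the fit with the replicate block. With anti-CD40 the points lie between -1.03 for Il7r and 1.61 for Il21, whereas with PBS Gzmb (4.80) and Il21 (4.59) lie far to the right.

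Lists that describe growth and metabolism showed no calls and split by replicate. All 21 ribosome biogenesis genes were lower with persistent antigen, by a median of -0.45, but the median within replicate 1 was -0.89 and within replicate 2 it was 0.10. The list's median level was 7.64, 7.58 and 7.47 in persistent arrays and 8.36 and 7.33 in transient arrays, so transient replicate 1 stood alone at the top. Amino acid uptake and one-carbon genes (13 of 15 negative) were at -0.50 within replicate 1 and 0.23 within replicate 2, and glycolysis and pentose phosphate genes (16 of 19 negative, 11 of 19 with cyclic loess scaling) at -0.34 and 0.05. Sterol and fatty acid synthesis genes (19 of 24 negative, 13 of 24 with cyclic loess scaling) were at -0.52 and 0.08. The interferon-stimulated list went the other way, with 0.35 within replicate 1 and -0.52 within replicate 2. Over all genes 44.3% of differences were positive. In the 8 measured Th2 and Th17 genes all differences were negative, with medians of -0.55 and -0.24 in the pairs, and none passed.

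The pairs themselves shared little. Across 18193 genes the persistent minus transient differences of replicate 1 and of replicate 2 had a correlation of 0.04 (a description across genes, which are not independent). Replicate 1 had 186 genes past 1 log2 unit, 40 higher and 146 lower, and replicate 2 had 298, with 143 higher and 155 lower. The pairs shared 17 higher and 3 lower genes, and 3 genes moved in opposite directions. With PBS, the 3 pairs correlated at 0.60 to 0.63, and they had 827 to 978 genes past 1 log2 unit. Replicate 2 with anti-CD40 correlated at 0.34 to 0.50 with the PBS pairs, and replicate 1 at -0.20 to 0.10.

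**Figure D3:**
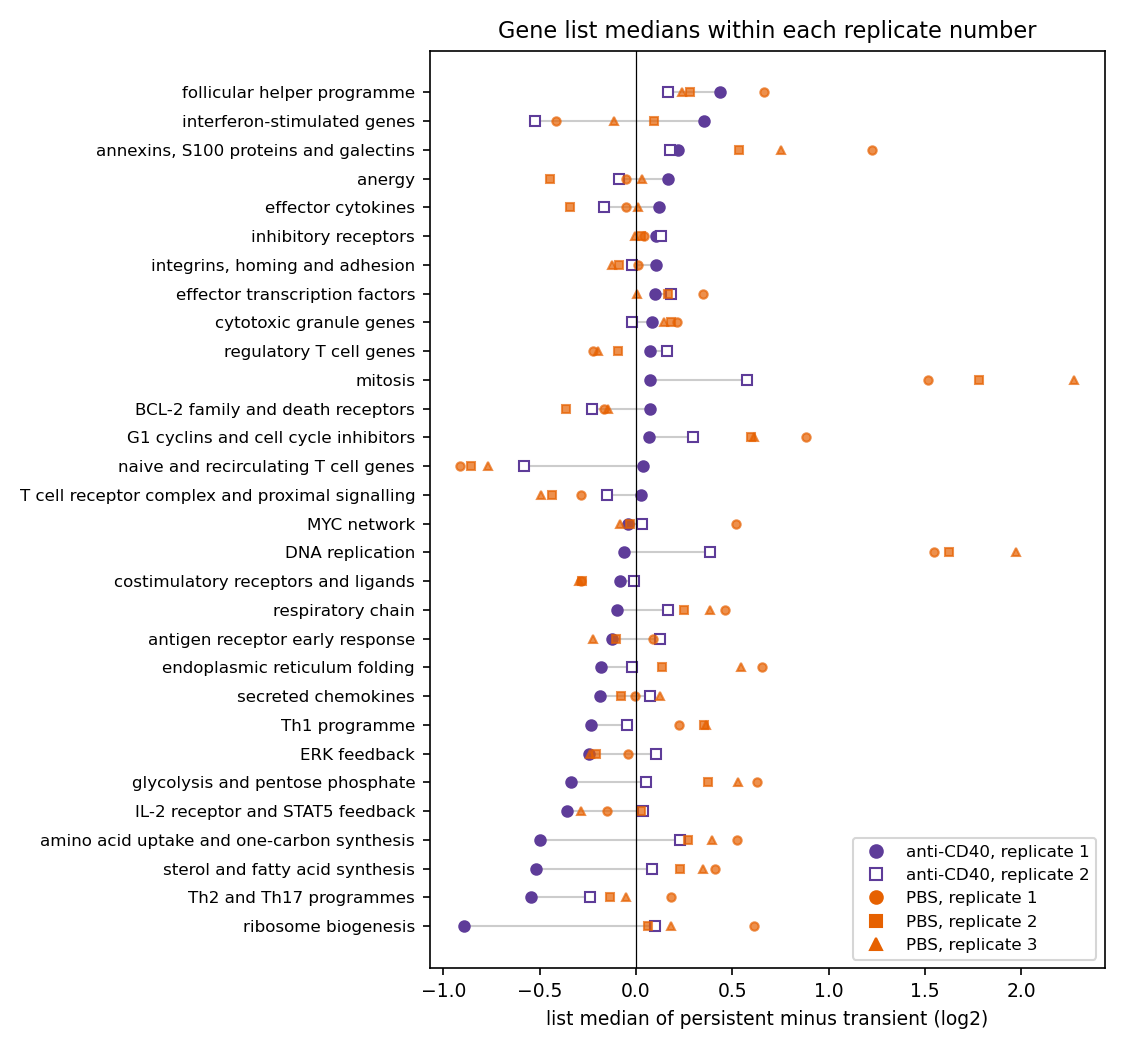
Median persistent minus transient difference (log2) of each of the 30 gene lists within each replicate number, with anti-CD40 (purple, filled circle for replicate 1 and open square for replicate 2, joined by a line) and with PBS (orange, 3 replicates). The replicate 1 point of ribosome biogenesis lies at -0.89 and its replicate 2 point at 0.10, and the PBS points of DNA replication and mitosis all lie above 1.5, far to the right of their anti-CD40 points.

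The antigen duration contrast was then set against the same contrast with PBS, to ask whether the antibody changed the difference that duration made. With PBS, 2079 genes passed with the block (11.4% of the genes tested), 1089 higher (5.99%) and 990 lower (5.44%), and 169 without it (0.929%). The difference between the contrasts, tested as an interaction, passed in 326 genes with the block (1.79%), 276 of them negative (1.52%), meaning a smaller or more negative difference with anti-CD40, and 50 positive (0.275%). Without the block none passed (limma, smallest adjusted p 0.39, 628 of 18193 genes at an unadjusted p under 0.05). Of the 326, 313 had a smaller absolute difference with anti-CD40 than with PBS. This split was not particular to them. Of the genes called with PBS in the same fit, it held for 1073 of the 1089 higher and 982 of the 990 lower ones. Over all genes the differences had an SD of 0.22 with anti-CD40 and 0.42 with PBS. The share over all genes is not given here. The 276 negative genes had a median difference of 0.05 with anti-CD40 and 1.55 with PBS, and the 50 positive ones had -0.10 and -1.33. These medians describe genes picked by the same arrays.

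Lists of proliferation genes held many of the interaction calls for their size. In the 33 measured DNA replication genes, none passed with anti-CD40, and 31 differences were positive with a median of 0.17. With PBS 31 of 33 rose, with a median of 1.79. The interaction passed in 27 of 33, all negative, against 1.52% of all genes. In the 30 measured mitosis genes the counts were 0 with anti-CD40 (29 positive, median 0.30) and 30 with PBS (median 1.85), and the interaction passed in 17, all negative. The levels of the lists by array were then read. DNA replication genes had array medians of 8.56, 8.61 and 8.63 in persistent anti-CD40 arrays and 8.64 and 8.22 in transient anti-CD40 arrays. With PBS the medians were 8.69, 8.05 and 8.11 in persistent arrays and 7.32, 6.37 and 6.63 in transient arrays. Persistent arrays overlapped between the injections, and the transient anti-CD40 arrays lay within their range, whereas all 3 transient PBS arrays lay below every other array of the 4 groups. The interaction counts of both lists lean on single arrays. Without transient anti-CD40 replicate 1 the interaction passed in 6 DNA replication and 1 mitosis genes, without persistent anti-CD40 replicate 1 in 9 and 2, and without persistent PBS replicate 3 in 6 and 2, while the list medians stayed between -1.81 and -1.34 and between -1.75 and -1.25 over all such omissions.

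**Figure D4:**
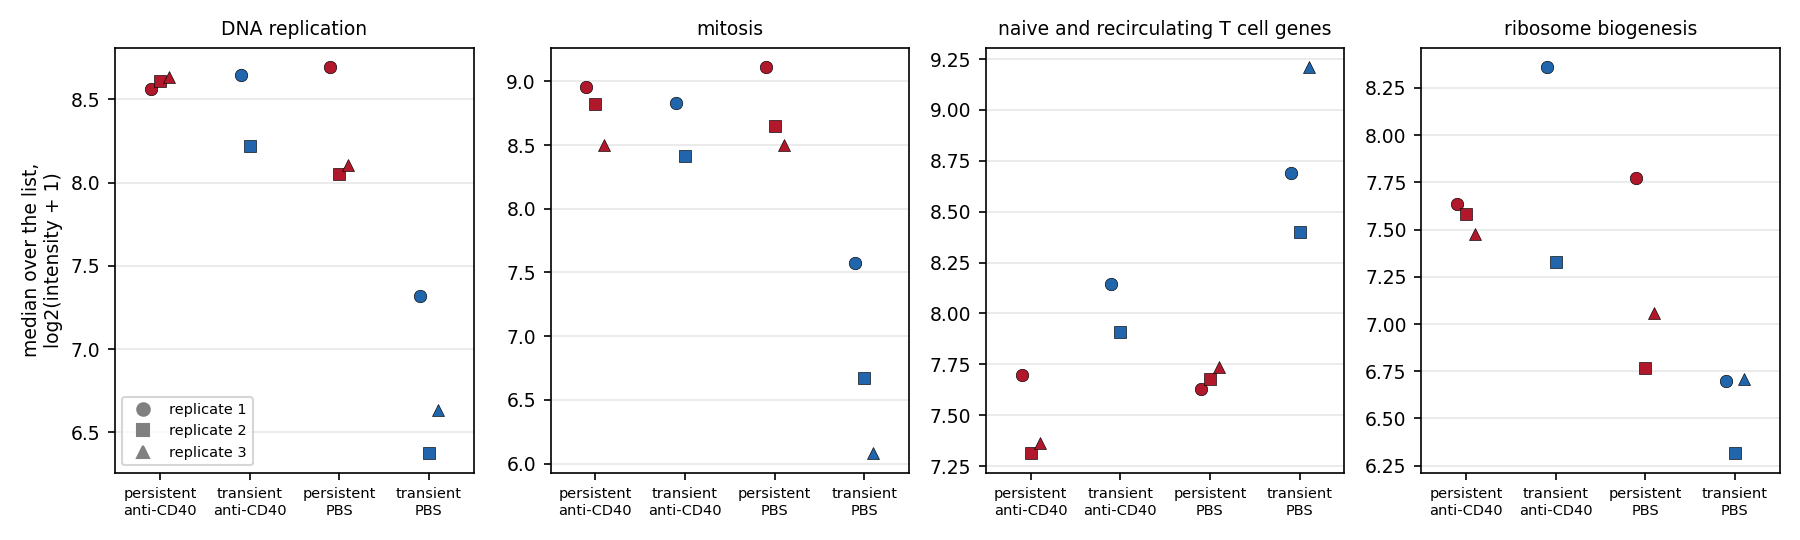
Median log2(intensity + 1) over each of 4 gene lists in every array of the antigen duration groups, persistent (red) left of transient (blue), anti-CD40 left of PBS, with marker shape for the replicate number. In the DNA replication and mitosis panels the transient anti-CD40 points sit near the persistent points and the transient PBS points sit lowest. In the ribosome biogenesis panel the transient anti-CD40 array of replicate 1 is highest at 8.36.

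The promoters of these lists were read because most of their genes rose together with persistent antigen under PBS. Of the DNA replication genes, 27 had a window of 300 bases around the gene's start, most of it upstream, in the RefSeq table (GRCm38.p6), and 26 of the mitosis genes had one, 1 window per gene. An E2F-type motif (TTTCCCGC, TTTCGCGC, TTTGCCGC or TTTGGCGC, either strand) was in 11 of 27 DNA replication windows (40.7%), in 1 of 26 mitosis windows (3.85%) and in 2.32% of all 27025 promoters. The letters of the cell cycle genes homology region (TTTGAA or TTTAAA, either strand) were in 25.9%, 84.6% and 27.8% of the same sets, and the CCAAT box (either strand) in 66.7%, 73.1% and 37.9%. A match describes the letters only. None of the motifs overlap in the windows shown. Cdt1, which licenses replication origins, and Cdc6, which loads the replicative helicase, are shown with the E2F-type letters in capitals, and Ttk, the kinase MPS1 of the spindle checkpoint, and Aurka, the spindle pole kinase Aurora A, with the CCAAT box and the homology region letters in capitals. Cdt1 lies at chr8:122567765-122568064 on the plus strand, Cdc6 at chr11:98907901-98908200 on the plus strand, Ttk at chr9:83834439-83834738 on the plus strand and Aurka at chr2:172370521-172370820 on the minus strand, each printed 5′ to 3′ on the gene's strand.
Cdt1: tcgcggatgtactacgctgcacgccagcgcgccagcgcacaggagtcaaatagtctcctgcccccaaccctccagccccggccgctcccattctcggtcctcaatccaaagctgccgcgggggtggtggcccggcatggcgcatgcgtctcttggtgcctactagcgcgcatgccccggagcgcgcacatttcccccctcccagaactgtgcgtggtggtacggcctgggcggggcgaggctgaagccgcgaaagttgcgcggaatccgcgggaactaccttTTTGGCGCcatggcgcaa
Cdc6: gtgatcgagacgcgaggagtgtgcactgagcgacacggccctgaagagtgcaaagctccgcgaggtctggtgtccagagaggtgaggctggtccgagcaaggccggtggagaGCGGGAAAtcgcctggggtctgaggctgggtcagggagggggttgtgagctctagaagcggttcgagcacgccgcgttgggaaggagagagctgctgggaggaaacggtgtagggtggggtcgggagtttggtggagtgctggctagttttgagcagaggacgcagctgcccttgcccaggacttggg
Ttk: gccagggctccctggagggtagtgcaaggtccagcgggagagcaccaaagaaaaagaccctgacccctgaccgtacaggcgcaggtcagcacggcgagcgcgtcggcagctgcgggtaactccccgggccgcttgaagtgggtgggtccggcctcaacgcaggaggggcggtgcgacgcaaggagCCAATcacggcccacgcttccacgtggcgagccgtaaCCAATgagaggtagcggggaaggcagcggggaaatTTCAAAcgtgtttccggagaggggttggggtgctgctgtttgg
Aurka: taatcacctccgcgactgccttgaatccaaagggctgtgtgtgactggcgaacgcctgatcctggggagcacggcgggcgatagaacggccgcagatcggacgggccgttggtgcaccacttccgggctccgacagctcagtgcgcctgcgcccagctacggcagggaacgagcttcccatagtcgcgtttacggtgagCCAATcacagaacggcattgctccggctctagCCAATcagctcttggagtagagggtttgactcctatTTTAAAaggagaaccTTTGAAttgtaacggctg

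Both genes shown that are named by the interaction rule follow the lists. Cdt1 read 9.94, 10.53 and 9.93 in persistent arrays and 9.89 and 9.92 in transient arrays with anti-CD40. With PBS it read 9.84, 10.16 and 9.92 in persistent arrays against 7.95, 7.58 and 7.45 in transient arrays. The interaction was -2.03 ± 0.28 (adjusted p = 0.0027). Ttk had 7.92, 7.15 and 7.83 with persistent antigen and 7.85 and 6.81 with transient antigen under anti-CD40, and its interaction was -1.83 ± 0.26 (adjusted p = 0.003). Dscc1, a subunit of an alternative clamp loader, Pole2, the small subunit of DNA polymerase epsilon, and Hells, a chromatin remodelling helicase, followed with -3.07 (adjusted p = 3.9e-05), -1.90 and -1.73 (both adjusted p = 0.003). A second and dimmer Dscc1 probe set (mean log2 3.51 against 5.34) gave an interaction of -0.15.

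The interaction was also negative in several effector genes. Gzmb differed by 4.80 with PBS and by 0.39 with anti-CD40, and the interaction was -4.41 ± 0.44 (adjusted p = 5.3e-05). The transient arrays carried the contrast: they read 8.98 and 7.15 with anti-CD40 against 4.51, 4.14 and 4.71 with PBS. Emp1, a tetraspan membrane protein, had an interaction of -3.37 ± 0.44 (adjusted p = 0.0012). Its second probe set was nearly as bright (mean log2 4.75 against 5.12) and gave 0.16, so only the brighter one showed the interaction. S100a4, a calcium-binding protein of effector and memory T cells, had -2.59 ± 0.29 (adjusted p = 0.00024). Il21 had -2.98 ± 0.52 (adjusted p = 0.0087), which did not pass without transient anti-CD40 replicate 1 (adjusted p = 0.11) or without persistent PBS replicate 3 (adjusted p = 0.063). Tbx21 had -1.72 ± 0.42 (adjusted p = 0.041), a call that was lost in each of the 11 fits that left out 1 array. Among the other lists, the interaction passed in 4 of 25 resting T cell genes, all positive, in 5 of 18 G1 cyclins and inhibitors (1 positive), and in 3 each of 18 cytotoxic granule, 13 annexin, S100 and galectin, and 19 glycolysis genes, all negative, against 1.79% of all genes. Without transient anti-CD40 replicate 1 these counts fell to 0 resting, 1 G1, 1 cytotoxic granule, 1 annexin, S100 and galectin, and 0 glycolysis genes. It passed in none of the 28 interferon-stimulated, 12 inhibitory receptor or 22 respiratory chain genes.

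Of the 14 genes called with anti-CD40, 8 also rose and 2 also fell with PBS in the blocked fit. Dsp differed by 2.24 with PBS (adjusted p = 1.2e-05) and Tox2 by 2.92 (adjusted p = 4.3e-08), and their interactions did not pass (0.90, adjusted p = 0.39, and -0.87, adjusted p = 0.18). Nt5e also rose with PBS (adjusted p = 0.0011), and its interaction of 0.92 did not pass (adjusted p = 0.12). Ikzf3 was alike in both (1.11 with anti-CD40 and 1.17 with PBS, interaction -0.06 ± 0.23). Plek and Tdrp moved further with PBS, with interactions of -1.71 (adjusted p = 0.033) and 1.72 (adjusted p = 0.011). Hemgn and Spata5l1 differed by 0.09 and -0.07 with PBS, and their interactions of -1.10 (adjusted p = 0.025) and -0.83 (adjusted p = 0.039) passed. Of the 11 fits that left out 1 array, the interaction was still called in 4 for Plek, 8 for Tdrp, 5 for Hemgn and 2 for Spata5l1. Egr2 differed by 0.05 with PBS, and its interaction of 1.09 did not pass (adjusted p = 0.10).

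**Figure D5:**
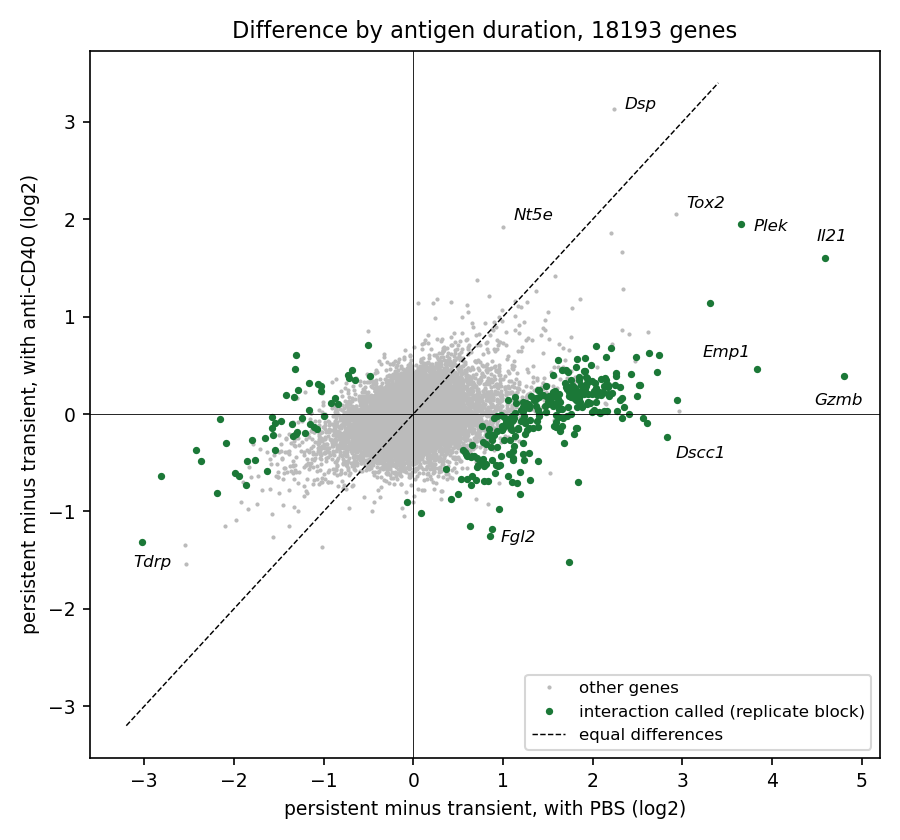
Persistent minus transient difference of each gene (log2, replicate block) with anti-CD40 on the vertical axis and with PBS on the horizontal axis. Green points passed the interaction test, and the dashed line marks equal differences. Most green points lie near 0 on the vertical axis and away from 0 on the horizontal axis, and Dsp and Nt5e lie above the line.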

How the data were processed

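RNA of sorted cells was measured with 1 Affymetrix mouse array per sample. Per the labels' protocols it was isolated with Trizol and amplified in 2 rounds. The authors deposited intensities. RMA is the one tool that the submitters' processing notes name, and the values are on a linear scale, judged from their range. Of 45101 probe sets, 34945 had 1 gene symbol in the platform annotation, 932 had several and 9160 had none, and 64 were controls. The brightest probe set over 16 arrays stood for each of 18193 genes, on log2(intensity + 1). No column was left unmapped.

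limma 3.58.1 (R 4.3.3) fitted 6 group means over all 16 arrays, with an intensity trend and Benjamini-Hochberg adjustment, without and with the replicate number as a block. The block was judged from the correlations of same-numbered arrays (36 pairs, lowest 0.48, median 0.68, against a median of -0.53 for other numbers). The median for other numbers is partly forced, because deviations from a group mean cancel out within the group. The fit was tested on simulated data. Arrays limit precision by their number (3 and 2).

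Named genes were the up to 15 largest increases and decreases called without the block or, where fewer passed, with it, that did not overlap and lay above the median probe set. Sex-linked genes, clone names and antigen receptor segments were not named. Added to these were up to 5 called members per list, 30 key genes and the 8 interaction genes with the smallest p. The members and lists were chosen with earlier results of these data known. List genes with no probe set of their own symbol were not analysed here. Alternatives changed the block, the arrays fitted, the trend, a filter on dim genes, the probe set rule, the scaling, array weights, the pseudocount (16) and the arrays left out. Promoters were read from the RefSeq table with Python. Log2 differences were computed here and the authors deposited none.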

Additional observations from a re-analysis of the deposited data

Results flagged for a closer look

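In 14 of 49 named or called genes, the effect of antigen duration differed with anti-CD40 by the test of the difference itself (limma with the replicate block). Over all genes the share was 1.79%. The difference between the contrasts was negative in 13, which means a smaller or more negative persistent minus transient difference with anti-CD40 than with PBS. It was -4.41 for Gzmb, -3.37 for Emp1, -3.07 for Dscc1, -2.98 for Il21, -2.59 for S100a4, -2.03 for Cdt1, -1.90 for Pole2, -1.83 for Ttk and -1.73 for Hells. Smaller values were -1.72 for Tbx21, -1.71 for Plek, -1.10 for Hemgn and -0.83 for Spata5l1. It was 1.72 for Tdrp, the only positive one. Of these, 8 were named because their interaction had the smallest p. The count of 14 was thus partly fixed by the naming rule and is no measure of how often named genes differ. Without the replicate block none of the 14 passed. With it, the 8 genes named by their interaction kept their call in all 11 fits that left out 1 array, whereas Tbx21 kept it in none. Groups of 2 and 3 arrays were not searched for single arrays that stand apart.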

How the results depend on the processing

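With anti-CD40, 1 gene was called without a block and 14 with the replicate block. The count without a block was 16 with runs of consecutive array numbers as a block and 2 with probe sets averaged per gene. It was 0 with the compared groups alone, no intensity trend, dim genes left out, cyclic loess, array weights or log2(intensity + 16), and 0 in every fit that left out 1 of the 5 arrays. With the replicate block it was 4 with probe sets averaged per gene, 24 with array weights and, for replicates 1 and 2 only, 5, and leaving out 1 array gave 3 to 7. With PBS, 169 genes became 2405 with array runs, 12 with the compared groups alone, 359 with cyclic loess, 3934 with array weights and 2079 with the replicate block, and 37 to 161 without 1 array. The interaction count of 0 became 479 with array runs, 5 with array weights, 326 with the replicate block, and 0 to 2 without 1 array. The blocked 326 became 523 with the compared groups alone, 890 with array weights, 29 for replicates 1 and 2 only, and 31 to 449 without 1 array. The 31 is without transient anti-CD40 replicate 1, and counts of 37 and 48 arose without persistent PBS replicate 3 and persistent anti-CD40 replicate 1. The cause of these shifts was not tested. Fits without 1 array have fewer arrays, and where 1 transient array was left it was assumed to vary like the other groups.

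The alternatives to the blocked interaction fit, and those for single genes with the block, were chosen after seeing the data. No called gene changed sign. Of 41 genes compared without the block, 14 changed sign in some setting, Gzmb, Ifng, Tbx21 and Ctla4 among them, and none of the 14 was called. Cyclic loess moved the median of all genes by less than 0.1, and it turned the small list medians of costimulatory, effector cytokine, regulatory T cell and interferon-stimulated genes with anti-CD40. Dsp kept its call without the block in no fit that left out an array (adjusted p 0.055 to 0.44).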

Other observations

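A small set of genes had the larger fitted difference by antigen duration, in absolute size, with anti-CD40 rather than with PBS. Whether the one size exceeded the other was not tested. Of the 326 genes whose interaction passed with the replicate block, 13 were of this kind, and they were looked up after their values were seen. Fgl2, a fibrinogen-like protein with immunoregulatory activity, read 4.22, 3.66 and 3.23 in persistent anti-CD40 arrays against 4.85 and 5.49 in transient anti-CD40 arrays. This difference did not pass (-1.25, limma with the block, adjusted p = 0.25). With PBS the difference had the other sign, with 4.18, 5.11 and 3.50 in persistent arrays against 3.80, 3.63 and 2.81 in transient arrays. The PBS groups overlapped, and most of the Fgl2 values lay below the median probe set (log2 4.37). The interaction was -2.11 (limma, adjusted p = 0.011). Ctla2a and Ctla2b, inhibitors of cathepsin L-type proteases, differed by -1.14 and -0.98 with anti-CD40 and by 0.63 and 0.95 with PBS. Ifitm2, an interferon-induced membrane protein, differed by -1.18 with anti-CD40 and 0.88 with PBS. Ubash3b, a phosphatase that restrains antigen receptor signalling, went the other way, with 0.71 with anti-CD40 and -0.51 with PBS (interaction 1.22). With anti-CD40, Ctla2a, Ctla2b, Ifitm2 and Ubash3b did not pass (limma with the block, adjusted p 0.36, 0.45, 0.50 and 0.45). With PBS, only Ctla2b among them passed (adjusted p = 0.0089 in the same fit). Fits that left out 1 array are not given for these genes or Fgl2. Of the 13, Hemgn and Spata5l1 were called in the anti-CD40 contrast alone.

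Other genes with a regular pattern over the anti-CD40 arrays did not pass. Gzmk, which encodes granzyme K, read 7.13, 6.44 and 6.59 in persistent arrays against 5.75 and 5.21 in transient arrays (1.29, adjusted p = 0.19). Lgals3, which encodes galectin-3, read 6.70, 7.15 and 6.55 in persistent arrays against 6.10 and 5.40 in transient arrays (1.14, adjusted p = 0.30). Igfbp4, a growth factor binding protein of resting T cells, read 6.64, 6.30 and 6.54 in persistent arrays against 8.63 and 7.16 in transient arrays (-1.54, adjusted p = 0.30).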
